A study of Homo sapiens with 8 samples.

Results

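The passage of a cell from G1 into S phase was examined through 10 genes, namely the D cyclins CCND1, CCND2 and CCND3, the E cyclins CCNE1 and CCNE2, the cyclin-dependent kinase (CDK) inhibitors CDKN1A, CDKN1B and CDKN2A, the retinoblastoma gene RB1 and the transcription factor gene E2F1. They were selected by name from the 78691 genes of the count table, in which each name occurs once. D cyclins bound to CDK4 or CDK6, and E cyclins bound to CDK2, phosphorylate the retinoblastoma protein, which then lets go of E2F factors, and these switch on genes for DNA replication and nucleotide synthesis. The p21 protein from CDKN1A and the p27 protein from CDKN1B hold back cyclin E and CDK2, while p16 from CDKN2A blocks CDK4 and CDK6. Loss of RB1 is a common lesion of neuroendocrine prostate cancer, and high p16 is a known accompaniment of a retinoblastoma protein that does not work. Only mRNA was measured here, whereas cyclins, p21 and p27 are also controlled through protein breakdown and the retinoblastoma protein through phosphorylation.

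RNA sequencing covered a pair of prostate cancer lines in which MYCL, which encodes the MYC family transcription factor L-MYC, was raised or lowered, with 2 libraries per condition. C4-2B, a castration-resistant prostate adenocarcinoma line, was transduced with an empty lentiviral vector (control) or with a lentivirus carrying human MYCL and EGFP behind the EF1A promoter (MYCL). NCI-H660, a neuroendocrine prostate cancer line, received shRNA against MYCL (shMYCL) or a non-targeting shRNA (shCtrl). The series design names an adenoviral vector for the knockdown, while the treatment text speaks of a stable one, so the time under knockdown is uncertain. The C4-2B vector allows puromycin selection or sorting, and no single-cell clone was described for either line. Both lines grew in RPMI medium with fetal bovine serum, to which further supplements were added for NCI-H660. The labels name the C4-2B control libraries biological replicates and the others replicates, but nothing states that libraries of a condition came from separate infections, so p-values measure only the spread between libraries.

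MYCL itself was at 12.1 and 14.2 CPM (counts scaled to library size, after normalization between libraries) in the control C4-2B libraries and at 3733 and 4242 in the MYCL libraries. This was a log2 fold change of 8.26 (SE 0.12, adjusted p = 3.91e-09), and the counts include transcripts of the vector. In NCI-H660 cells, MYCL was at 104 and 81.8 CPM in shCtrl and at 10.3 and 11.99 CPM in shMYCL libraries, a log2 fold change of -3.06 (SE 0.15, adjusted p = 4.29e-09). MYCL therefore followed the labels in all 8 libraries, and its mean level in C4-2B MYCL cells, 3987 CPM, lay far above the 93.0 CPM of NCI-H660 shCtrl cells. The C4-2B control and NCI-H660 shCtrl cells are called unperturbed below, although both received a control construct.

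Library totals ranged from 15177071 to 32344170 counts, and the C4-2B control libraries were the deepest. Replicate libraries differed by more than sampling noise, with a biological coefficient of variation of 0.083 for C4-2B and 0.097 for NCI-H660. The cell types followed their names, since 7 luminal prostate markers summed to between 3524 and 3526 CPM in C4-2B control and between 239 and 270 CPM in NCI-H660 shCtrl libraries, while 7 neuroendocrine markers summed to 11.5 CPM in both C4-2B control libraries and to between 1471 and 1584 CPM in shCtrl. KLK2 and KLK3 were at 0 in NCI-H660, and INSM1 and NCAM1 were at 0 in C4-2B libraries. By the rule for calls given below, 6 of the 7 luminal markers were lower in unperturbed NCI-H660 cells, and the other was at -0.12 on the log2 scale. All 7 neuroendocrine markers were higher there, while 69.8% of all genes tested were called in either direction. Under MYCL knockdown, 1 of 3 tested luminal markers was called higher, by 2.46, beside 7.18% of all genes tested. The other 2 had negative values, down to -1.50, and were not called. The luminal sum in shMYCL libraries was between 223 and 225 CPM, below that of shCtrl. A set of 8 stromal and blood cell markers summed to between 12.4 and 15.8 CPM in C4-2B control and to between 35.8 and 41.1 CPM in C4-2B MYCL libraries. CD68, a lysosomal protein gene of macrophages, made up most of that sum and rose by 1.53 on the log2 scale, while DCN and PTPRC were at 0 in all 4 C4-2B libraries. The part of this shift in the results below was not tested.

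Overexpression of MYCL in C4-2B cells changed 6 of the 10 genes. CCND2, CDKN1A and CDKN1B rose, and CCNE2, RB1 and E2F1 fell. A gene was called when its adjusted p was under 0.05 and its absolute log2 fold change at least 0.5. By that rule 19.9% of the 16866 genes tested were called, 11.8% as higher and 8.12% as lower. Higher genes made up 59.2% of these calls, but 33.8% by limma on log2(TPM + 1), a scale on which the median gene lay at -0.14. Knockdown of MYCL in NCI-H660 cells changed 5 of the 9 genes tested, with CCND3, CCNE1 and CDKN1A higher and CCND1 and CDKN1B lower, against 16.2% of 16980 genes called, 7.18% as higher and 8.99% as lower. The members were picked as a known pathway and with earlier results of these data in view, so these counts are a description. For one gene, the smallest p that exact permutation of 2 and 2 libraries allows is 0.33, and the calls therefore draw on a spread pooled over genes by edgeR. CCND2 did not pass the filter on low counts in NCI-H660 cells. On log2(TPM + 1) values, in which TPM also takes gene length into account, limma called 7 of the members in C4-2B but only CCND1 and CCND3 in NCI-H660 cells, where CCNE1, CDKN1A and CDKN1B had adjusted p-values of 0.0913, 0.0687 and 0.0739.

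**Figure D1:**
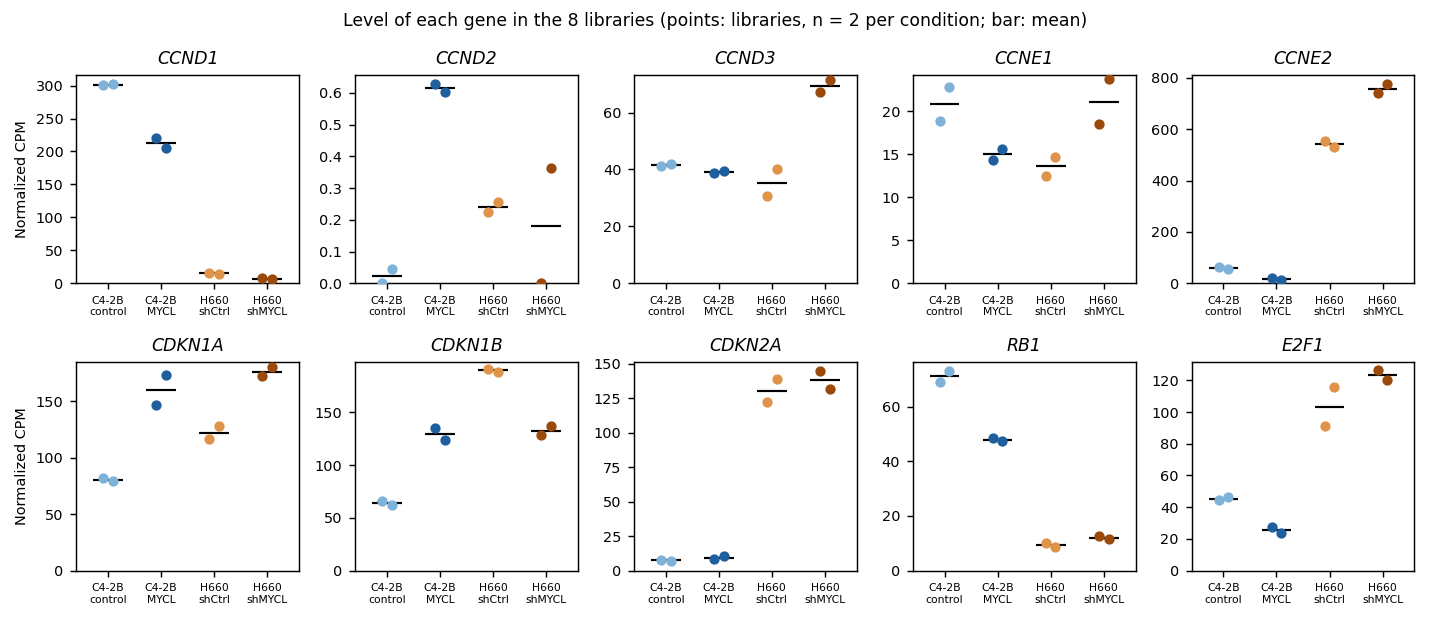
Normalized CPM (vertical axes, each gene on its own scale from 0) of the 10 genes in the 2 libraries of each condition (points), with bars at the means. CCND1 and RB1 were high in C4-2B and low in NCI-H660 cells, CCNE2 and CDKN2A the opposite, and CDKN1A was higher in the perturbed than in the control libraries of both lines.

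CCND1, on chr11:69641156-69654474 (GRCh38, plus strand), encodes cyclin D1, the main partner of CDK4 in many epithelial cancers. It was at 300.2 and 302 CPM in C4-2B control and at 221 and 205 CPM in C4-2B MYCL libraries. In NCI-H660 cells it was at 16.2 and 14.04 CPM under shCtrl and at 7.36 and 7.02 CPM under shMYCL. Both perturbations thus left CCND1 lower, with no overlap between the libraries compared. The decrease in NCI-H660 was called (log2 fold change -1.07, SE 0.17, adjusted p = 2.93e-04), a 2.11-fold difference. The change in C4-2B, -0.49 (SE 0.07, adjusted p = 0.00111), passed on p but lay just short of the fold required. It passed that limit in 8 of 16 alternatives, among them without C4-2B control replicate 1 (-0.51) and without C4-2B MYCL replicate 1 (-0.55). The neighboring gene LTO1, on the opposite strand, shares 10.4% of the exon bases of CCND1. LTO1 rose by 0.59 on the log2 scale under shMYCL (adjusted p = 0.0141), while its value in C4-2B, 0.30, did not pass (adjusted p = 0.166).

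CCND3, on chr6:41934934-42050357 (minus strand), encodes cyclin D3, the D cyclin best known from lymphoid cells. It was at 41.1 and 42.01 CPM in C4-2B control and at 38.7 and 39.5 CPM in C4-2B MYCL libraries, a log2 fold change of -0.08 (SE 0.08, adjusted p = 0.478). Under knockdown it rose from 30.7 and 40.1 CPM under shCtrl to 67.2 and 71.3 CPM under shMYCL. This was a log2 fold change of 0.96 (SE 0.13, adjusted p = 8.43e-05), and the spread within shCtrl was the widest of the 4 conditions.

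CCND2, on chr12:4269771-4305353 (plus strand), was the scarcest of the genes, with 0 and 1 counts in C4-2B control, 11 and 10 in C4-2B MYCL, 4 and 5 in shCtrl and 0 and 6 in shMYCL libraries. Scaled to library size, the 21 counts of the C4-2B MYCL libraries against 1 count gave a ratio of 32.8 with a 95% counting interval from 5.27 to 1356. The call (adjusted p = 0.00747) was lost without C4-2B control replicate 1, with an adjusted p of 0.101. The NCI-H660 ratio was 0.767 with an interval from 0.225 to 2.41, so no difference was detectable at this depth. A readthrough gene on the same strand, ENSG00000285901, covers 12.5% of the exon bases of CCND2 and had 22 counts in C4-2B MYCL and 7 in control libraries, so reads could be divided between the annotations.

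The D cyclins can be compared with one another on TPM, which is scaled for length. CCND1 held between 75.7% and 75.9% of D cyclin TPM in C4-2B control and between 69.2% and 71.2% in C4-2B MYCL libraries. It held between 13.2% and 18.8% under shCtrl and between 4.01% and 4.49% under shMYCL, where CCND3 made up between 95.5% and 95.9%. Cyclin D mRNA was therefore mostly CCND1 in the adenocarcinoma line and mostly CCND3 in the neuroendocrine line, and MYCL knockdown widened that imbalance. The summed TPM of the D cyclins was between 38.0 and 44.4 under shCtrl and between 70.2 and 74.9 under shMYCL, so the added CCND3 outweighed the lost CCND1.

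CCNE1, on chr19:29811991-29824312 (plus strand), encodes cyclin E1, which activates CDK2 late in G1. It was at 18.8 and 22.7 CPM in C4-2B control and at 14.3 and 15.6 CPM in C4-2B MYCL libraries, a log2 fold change of -0.46 (SE 0.13, adjusted p = 0.0211) that lay short of the fold required. Without C4-2B control replicate 1 it was -0.61 and without C4-2B MYCL replicate 2 it was -0.52, and the gene was then called. In NCI-H660 cells CCNE1 rose from 12.5 and 14.7 CPM under shCtrl to 18.5 and 23.7 CPM under shMYCL, by 0.63 on the log2 scale (SE 0.16, adjusted p = 0.00831). That call rested on shMYCL replicate 2, without which the change was 0.44 with an adjusted p of 0.155.

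CCNE2 encodes cyclin E2, a close relative of cyclin E1 with the same kinase partner. It fell from 63.0 and 55.2 CPM in C4-2B control to 19.5 and 14.5 CPM in C4-2B MYCL libraries, a log2 fold change of -1.79 (SE 0.14, adjusted p = 5.16e-05), and this decrease was called in all 16 alternatives. Its NCI-H660 levels were 552 and 531 CPM under shCtrl and 741 and 775 CPM under shMYCL. The log2 fold change of 0.48 (SE 0.10, adjusted p = 0.00296) lay just under the fold required, and it was 0.51 without shCtrl replicate 1 and 0.52 without shMYCL replicate 1. CCNE2 thus carried the largest decrease among the members in C4-2B cells, and by TPM it was their most abundant mRNA in each NCI-H660 library, with values between 375 and 572. INTS8, a gene on the opposite strand, shares 37.0% of the exon bases of CCNE2, and strand use in counting was not given in the sources used here. INTS8 had log2 fold changes of -0.17 (adjusted p = 0.162) in C4-2B and -0.08 (adjusted p = 0.626) in NCI-H660 cells.

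By TPM, CCNE2 made up between 63.5% and 72.4% of E cyclin mRNA in C4-2B control, between 45.1% and 53.03% in C4-2B MYCL, and between 95.7% and 96.7% in the NCI-H660 libraries. The summed E cyclin TPM was between 45.7 and 47.1 in C4-2B control, between 18.002 and 20.4 in C4-2B MYCL, between 392 and 431 under shCtrl and between 556 and 598 under shMYCL. The summed level moved against MYCL in both lines.

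**Figure D2:**
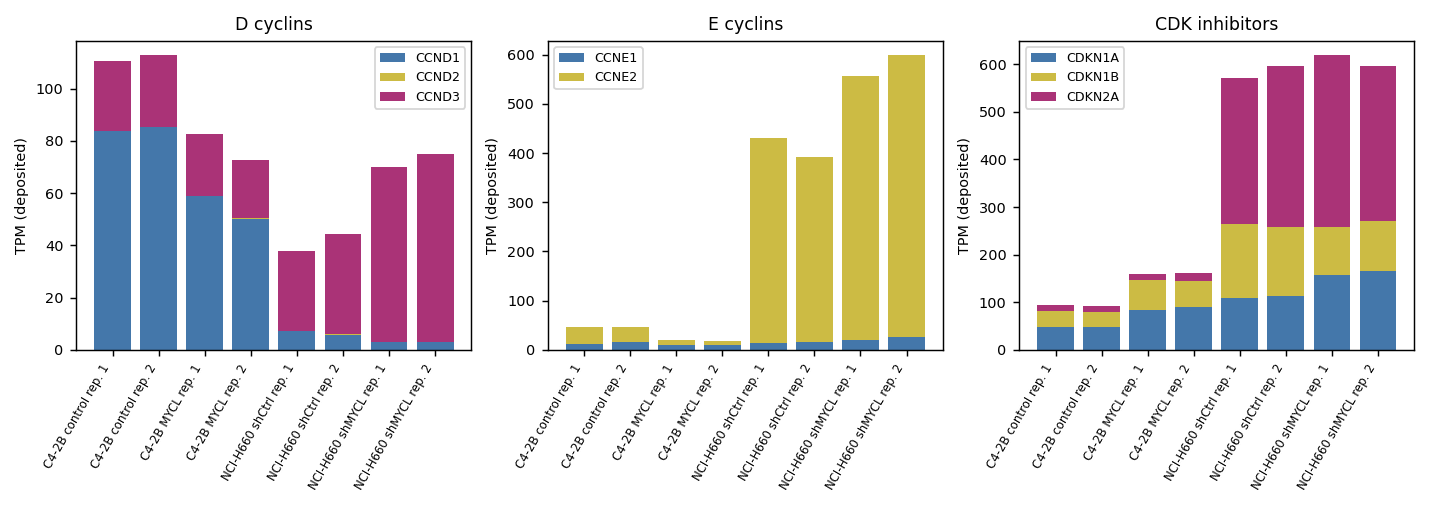
Stacked bars of deposited TPM (vertical axes, linear from 0) for the D cyclins, the E cyclins and the CDK inhibitors in each of the 8 libraries. CCND1 filled most of the D cyclin bar in C4-2B and CCND3 in NCI-H660 libraries, CCNE2 most of the E cyclin bar in NCI-H660, and CDKN2A between 53.7% and 58.3% of the inhibitor bar there.

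CDKN1A, on chr6:36676460-36687337 (plus strand), encodes p21, a CDK inhibitor and a classical target of p53. It was at 81.7 and 79.5 CPM in C4-2B control and at 147 and 173 CPM in C4-2B MYCL libraries. The log2 fold change was 0.99 (SE 0.09, adjusted p = 1.05e-04), a 1.99-fold increase. In NCI-H660 cells it was at 116 and 128 CPM under shCtrl and at 172 and 180 CPM under shMYCL, a log2 fold change of 0.52 (SE 0.10, adjusted p = 0.00204). CDKN1A was therefore higher both where MYCL was raised and where it was lowered. The NCI-H660 change lay near the fold required and fell below it without shCtrl replicate 1 (0.46) and without shMYCL replicate 2 (0.49).

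CDKN1B, on chr12:12685498-12722369 (plus strand), encodes p27, the inhibitor that accumulates in resting cells. It rose from 65.8 and 62.3 CPM in C4-2B control to 135 and 124 CPM in C4-2B MYCL libraries (log2 fold change 1.02, SE 0.08, adjusted p = 5.55e-05). It fell from 191 and 189 CPM under shCtrl to 128 and 137 CPM under shMYCL (log2 fold change -0.52, SE 0.10, adjusted p = 0.00174). CDKN1B thus moved in the same direction as MYCL in both lines, although the NCI-H660 decrease was -0.46 without shMYCL replicate 1 and then lay below the fold required.

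CDKN2A, on chr9:21967752-21995301 (minus strand), yields p16 from one first exon and p14ARF from another, and gene-level counts cannot separate them. It was at 7.997 and 7.24 CPM in C4-2B control and at 8.15 and 10.6 CPM in C4-2B MYCL libraries. The log2 fold change there was 0.30 (SE 0.18, adjusted p = 0.235). It was at 122 and 139 CPM under shCtrl and at 145 and 131 CPM under shMYCL, where the libraries overlapped (log2 fold change 0.08, SE 0.11, adjusted p = 0.651), and without shCtrl replicate 1 the value was -0.01. A change of CDKN2A with MYCL was thus not shown in either line. By TPM, CDKN2A made up between 13.8% and 14.2% of the summed inhibitor mRNA in C4-2B control and between 53.7% and 56.8% in shCtrl libraries. The antisense gene CDKN2B-AS1 shares 15.3% of the exon bases of CDKN2A and also stood higher in NCI-H660 cells, by 3.62 on the log2 scale.

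The promoters of the inhibitors that rose together in C4-2B MYCL cells are given below, from 250 bases before to 50 bases after the transcript start in RefSeq (GRCh38.p14, plus strand). That of CDKN1A spans chr6:36678464-36678763 and that of CDKN1B spans chr12:12717118-12717417, with a G and C content of 74.3% and 62.3%. Both windows lie inside the gene spans given above, and the promoters at the outer starts of those spans were not searched. Neither window holds an E2F word (TTTCCCGC, TTTGGCGC, TTTCGCGC or TTTGCCGC) or the E-box CACGTG, to which MYC family proteins with MAX bind, on either strand, and no base is therefore in capitals.
CDKN1A: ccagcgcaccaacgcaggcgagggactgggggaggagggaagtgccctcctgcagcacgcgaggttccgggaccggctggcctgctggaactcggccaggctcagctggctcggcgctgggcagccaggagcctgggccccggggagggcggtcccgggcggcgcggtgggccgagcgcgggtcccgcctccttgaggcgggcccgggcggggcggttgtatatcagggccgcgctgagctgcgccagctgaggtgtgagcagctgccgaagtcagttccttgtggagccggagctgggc
CDKN1B: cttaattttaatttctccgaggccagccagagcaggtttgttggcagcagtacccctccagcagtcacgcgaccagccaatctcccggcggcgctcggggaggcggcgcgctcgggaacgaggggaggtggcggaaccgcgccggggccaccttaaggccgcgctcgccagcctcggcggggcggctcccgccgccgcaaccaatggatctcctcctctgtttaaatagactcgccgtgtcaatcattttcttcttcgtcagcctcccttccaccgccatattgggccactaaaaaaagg

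RB1, on chr13:48303744-48599436 (plus strand), encodes the retinoblastoma protein, which binds E2F factors and silences their targets. It was at 69.2 and 73.2 CPM in C4-2B control and at 48.4 and 47.4 CPM in C4-2B MYCL libraries, a decrease by 0.56 on the log2 scale (SE 0.08, adjusted p = 8.54e-04). NCI-H660 libraries had 10.2 and 8.68 CPM under shCtrl and 12.5 and 11.4 CPM under shMYCL, with a log2 fold change of 0.34 (SE 0.17, adjusted p = 0.157). RB1 mRNA was therefore present in all NCI-H660 libraries, with between 170 and 201 counts, but at 7.53-fold lower levels than in C4-2B control. Gene-level counts do not tell whether these transcripts are full length.

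E2F1, on chr20:33675477-33686385 (minus strand), encodes an activating E2F factor and is itself a target of E2F factors. It fell from 44.5 and 46.3 CPM in C4-2B control to 27.5 and 23.8 CPM in C4-2B MYCL libraries, a log2 fold change of -0.81 (SE 0.10, adjusted p = 4.12e-04). In NCI-H660 cells it was at 91.0 and 116 CPM under shCtrl and at 127 and 120 CPM under shMYCL, a log2 fold change of 0.25 (SE 0.12, adjusted p = 0.134). The shMYCL libraries lay above the shCtrl libraries, but the difference did not pass the test.

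The E2F1 promoter is shown because it was the only one among the 7 members with a RefSeq promoter entry that held an E2F word, and the CCNE1 promoter because CCNE1 is a textbook E2F target in which none of the 4 words occurred. The RB1 entry among these 7, chr13:48476200-48476499, lies inside the gene and not at its start given above, so the promoter at that start was not searched. The same holds for the entries of CDKN1A, CDKN1B and CCND3. That of E2F1 spans chr20:33686336-33686635 on the minus strand and that of CCNE1 spans chr19:29811741-29812040 on the plus strand (RefSeq, GRCh38.p14, 5′ to 3′, 250 bases before to 50 after the start). Capitals mark the E2F words, TTTGCCGC read on the opposite strand from position -33 and TTTGGCGC from position -20 relative to the start.
E2F1: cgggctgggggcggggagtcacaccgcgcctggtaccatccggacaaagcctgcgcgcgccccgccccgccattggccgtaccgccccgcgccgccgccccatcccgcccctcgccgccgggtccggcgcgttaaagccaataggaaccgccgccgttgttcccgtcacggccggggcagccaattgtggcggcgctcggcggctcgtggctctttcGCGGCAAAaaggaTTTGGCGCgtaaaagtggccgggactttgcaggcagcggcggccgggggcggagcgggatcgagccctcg
CCNE1: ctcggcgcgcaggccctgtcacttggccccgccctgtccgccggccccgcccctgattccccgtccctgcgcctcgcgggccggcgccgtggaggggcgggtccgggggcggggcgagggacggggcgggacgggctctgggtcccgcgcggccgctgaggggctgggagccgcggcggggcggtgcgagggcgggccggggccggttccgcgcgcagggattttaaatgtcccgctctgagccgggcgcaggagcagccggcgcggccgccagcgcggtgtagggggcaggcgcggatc
An E2F word was held by 3.31% of all 35116 promoters in RefSeq's table, counted per entry, and by 59.1% of 22 E2F target genes with an entry, counted per gene. The shares of called and tested genes that follow are also counted per gene, so they are the closer base for the E2F targets. Among genes called in C4-2B cells the share was 10.2% for lower and 3.69% for higher genes, beside 6.59% of all genes tested. In NCI-H660 cells it was 4.77% for lower and 7.20% for higher genes, beside 6.44% of all tested. The E-box was found in none of the 7 members' entries, in 7.26% of all promoters, counted per entry, and in 22.7% of the E2F target genes, counted per gene. In C4-2B cells it was held by 16.4% of genes called lower and 11.1% of genes called higher, beside 12.4% of all tested. In NCI-H660 cells it was held by 10.99% of lower and 11.6% of higher genes, beside 12.1% of all tested. A missing word says only that these letters are not in this window.

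**Figure D3:**
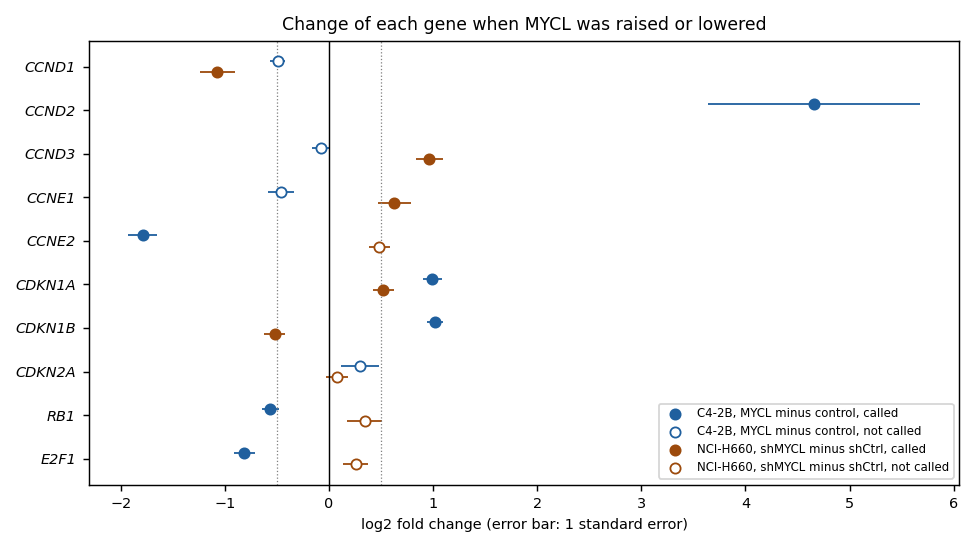
Log2 fold change (horizontal axis) of each gene for C4-2B MYCL minus control and for NCI-H660 shMYCL minus shCtrl, with bars of 1 standard error, filled points for called genes and dotted lines at the fold required. CCND1 lies left of 0 and CDKN1A right of 0 in both comparisons, CDKN1B changes side, and the CCND2 point rests on 1 count in the control libraries.

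Whether the 2 lines differed in their response to MYCL was tested as an interaction, in which the effect of MYCL overexpression was set against the difference between shCtrl and shMYCL cells, so that both compare high with low MYCL. The difference was called for 5 members, and for 17.9% of the 19605 genes tested. CDKN1A differed by 1.51 (SE 0.14, adjusted p = 2.27e-05) and CCND3 by 0.88 (SE 0.17, adjusted p = 0.00267), since high MYCL went with less of both in NCI-H660 cells, but with more CDKN1A and a CCND3 change of -0.08 in C4-2B cells. CCND1 differed by -1.57 (SE 0.15, adjusted p = 3.43e-05), because high MYCL went with less CCND1 in C4-2B and with more in NCI-H660 cells. CCNE2 differed by -1.31 (SE 0.17, adjusted p = 2.04e-04) and E2F1 by -0.56 (SE 0.17, adjusted p = 0.0290), and in both the sign was shared by the lines while the C4-2B decrease was the larger, although neither gene was called in NCI-H660 cells. The E2F1 call was lost in 8 of 15 alternatives, with values between -0.39 and -0.61 and adjusted p-values between 0.0594 and 0.131 when any one of C4-2B control replicates 1 and 2, C4-2B MYCL replicate 2, shCtrl replicate 2 or shMYCL replicates 1 and 2 was left out.

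CDKN1B differed by 0.50 (SE 0.12, adjusted p = 0.0116), just under the fold required, which it passed without C4-2B control replicate 1, C4-2B MYCL replicate 2 or shMYCL replicate 1 (0.53, 0.57 and 0.53). For CCNE1 the difference was 0.16 (SE 0.22, adjusted p = 0.679), for RB1 -0.23 (SE 0.16, adjusted p = 0.378) and for CDKN2A 0.37 (SE 0.18, adjusted p = 0.187), so a difference between the lines was not shown for these genes. MYCL itself changed far more in C4-2B than in NCI-H660 cells, and the line, the vector and the size of the MYCL change cannot be told apart.

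Between the unperturbed lines, 9 of the 10 members differed, 6 higher and 3 lower in NCI-H660, but so did 69.8% of all genes tested, 36.5% as higher and 33.3% as lower. In this comparison the line, its control vector and its culture cannot be told apart. CDKN2A was higher in NCI-H660 shCtrl than in C4-2B control by 4.09 (SE 0.13, adjusted p = 5.27e-12) and CCNE2 by 3.19 (SE 0.12, adjusted p = 2.36e-11) on the log2 scale. CCND1 was lower by 4.32 (log2 difference -4.32, SE 0.10, adjusted p = 4.83e-13), or 19.9-fold, and RB1 by 2.91 (log2 difference -2.91, SE 0.12, adjusted p = 4.72e-11). High CDKN2A, low CCND1 and low RB1 were thus found side by side in this 1 neuroendocrine line. The function of the retinoblastoma protein was not tested. CDKN1B was higher by 1.57, E2F1 by 1.19 and CDKN1A by 0.60, with adjusted p-values of 1.37e-09, 4.39e-07 and 7.04e-05.

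The smaller differences between the lines depended on the scale. That of CDKN1A ranged from 0.44, short of the fold required, on centred log2(TPM + 1) to 1.19 over its 15 alternatives. CCNE1 was lower in NCI-H660 by log2 -0.61 (adjusted p = 0.00276), but its value was 0.05 on log2(TPM + 1), a scale that moved the median gene from 0.03 to 0.52. Without C4-2B control replicate 2 or shCtrl replicate 1 it was -0.48 and fell below the fold required. CCND3 was at -0.23 (adjusted p = 0.0889) and on log2(TPM + 1) at 0.34, which is below that median shift. The CCND2 ratio of 12.8 rested on 9 counts against 1, with a 95% interval from 1.77 to 561, and its call (adjusted p = 0.0480) was lost in 8 of 12 alternatives. Leaving out any of 6 libraries, both C4-2B control and both C4-2B MYCL libraries and both shCtrl libraries, raised that p to between 0.059 and 0.261.

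Ordered by level, several conditions could not be separated by the range of their libraries. CDKN1A and CDKN1B overlapped between shMYCL and C4-2B MYCL cells, and CDKN2A between shCtrl and shMYCL. CCNE1 overlapped between shMYCL and C4-2B control and between C4-2B MYCL and shCtrl, and CCND3 between C4-2B MYCL and shCtrl. CCND2 overlapped between shCtrl and shMYCL and between shMYCL and C4-2B control. In CCND1, CCNE2, RB1 and E2F1 all 4 conditions were apart. The share of all genes that separate in this way was not counted, so this order is a description.

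The other genes of the pathway were described by lists drawn from general knowledge, but with earlier results of these data known. The median log2 fold change of all genes tested was -0.002 for the C4-2B and -0.003 for the NCI-H660 comparison. Of all genes tested, 11.8% were called higher and 8.12% lower in C4-2B, and 7.18% higher and 8.99% lower in NCI-H660 cells. The single calls given below, 1 of 8, 1 of 9 and 1 of 20 genes, lie near these shares. Of 25 E2F target genes, which mostly serve DNA replication, 21 fell in C4-2B MYCL cells, with a median of -0.76. MCM5, MCM4 and MCM2, subunits of the replicative helicase, fell by 1.59, 1.29 and 1.23 on the log2 scale. In NCI-H660 shMYCL cells 7 of the 25 rose, with a median of 0.33. The cell cycle factor gene MYBL2 rose by 0.93, and the licensing factor genes CDT1 and CDC6 rose by 0.80 and 0.69. The called E2F targets were thus lower where MYCL was higher in both lines, and for 12 of the 25 the interaction was called, each time with the lower value in C4-2B cells. The interaction was called for 17.9% of all genes tested.

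Of 11 pocket protein, E2F and DP factor genes, 5 fell in C4-2B MYCL cells (median -0.49), namely RBL1 (-1.17), which encodes the pocket protein p107, the activating factors E2F2 (-1.01) and E2F3 (-0.72), and the repressive factors E2F7 (-0.96) and E2F8 (-1.17). In shMYCL cells E2F2 (0.78), E2F7 (0.73) and E2F8 (0.84) rose, while E2F5 (-0.69), the E2F partner gene TFDP2 (-0.54) and RBL2 (-0.52), which encodes the pocket protein p130, fell (median 0.19). CDC25A, the phosphatase that activates CDK2, fell by 1.38 in C4-2B MYCL and rose by 1.09 in shMYCL cells, and CDK2 itself was at -0.70 and 0.72. CDK6 rose by 0.74 in C4-2B MYCL cells. Of 8 genes for G1 kinases and their activators, 1 rose and 2 fell in C4-2B (median -0.18), and 2 rose in NCI-H660 cells (median 0.28).

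Among 5 other CDK inhibitors, CDKN1C (p57) rose by 2.62 and CDKN2D (p19) by 0.91 in C4-2B MYCL cells, and the list had a median of 0.29. In shMYCL cells CDKN1C (-0.80) and CDKN2C (-0.51), which encodes p18, fell, and the list had a median of -0.45. CDKN1B and CDKN1C, both of the CIP/KIP family, were thus called in the direction of MYCL in each line, whereas the third member of that family, CDKN1A, was not. Of 9 genes for ubiquitin ligase parts that act on G1 cyclins and p27, FBXO4 (-1.10) and SKP2 (-0.53) fell in C4-2B MYCL cells (median -0.09), and SKP2 (0.92) alone rose in shMYCL cells (median 0.03). SKP2 marks the p27 protein for breakdown, a step that mRNA levels do not show. The SKP2 and CDKN1B mRNAs moved in opposite directions in both lines, and a link between them was not tested.

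Of 20 p53 target genes other than CDKN1A, 5 rose in C4-2B MYCL cells (median 0.26), led by the stress cytokine gene GDF15 (2.85), GADD45A (2.32) and the apoptosis gene BBC3 (1.71). MDM2, which p53 induces as its own inhibitor, was at -0.41 and was not called (it was picked after its value was seen). It stood at the low end of the list, whose values ran from -0.41 to 2.85, with 15 above 0 and 5 below. The activity of p53 was not tested. In shMYCL cells 1 of the 20 rose and 4 fell (median -0.20), with FAS at -1.25, TP53INP1 at -1.06 and GDF15 at -0.80, although CDKN1A was higher. Of 9 proliferation markers 3 fell in C4-2B MYCL cells (median -0.41), namely FOXM1 (-1.10), MKI67 (-0.56) and CCNB1 (-0.54). In shMYCL cells 4 fell (median -0.30), led by the mitotic genes CCNB1 (-1.12), PLK1 (-0.91) and AURKA (-0.85). The called mitotic and E2F target genes therefore moved in opposite directions after MYCL knockdown and in the same direction after MYCL overexpression. In bulk samples, fewer cells in a cell cycle phase and less RNA per cell cannot be told apart.

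**Figure D4:**
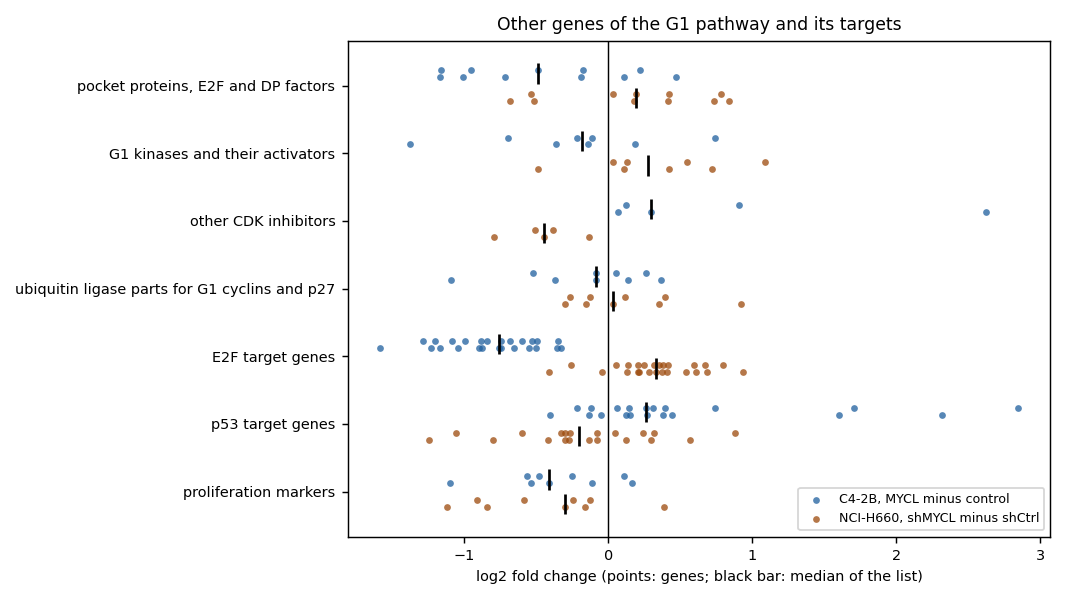
Log2 fold change (horizontal axis) of each tested gene of 7 lists (points) in C4-2B MYCL against control and in NCI-H660 shMYCL against shCtrl, with black bars at the list medians. All 25 E2F targets lie below 0 in C4-2B, where the median is -0.76, and 22 of them above 0 in NCI-H660 cells, where the median is 0.33.

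Among the members, E2F1 and CCNE2 were the pair most alike over the 8 libraries (Pearson r = 0.99 on log2 CPM), and with the mean of each line subtracted r was 0.95. CDKN1B and RB1 were the least alike after that subtraction (r = -0.96). These 8 points hold only 4 conditions, so the values are a description. Of 10025 genes with a mean log2 CPM of at least 3, DCBLD1, HAUS3 and MAPK14 were closest to E2F1, but 905 genes had r above 0.95. With line means subtracted the closest were TONSL, CDCA5 and SH3RF1, of 93 genes above 0.95. CDKN1A was closest to MRNIP, RAB31 and DAPK3, of 13 genes above 0.95, and after subtraction to MMP24, ARMCX3 and SCCPDH, of 100 genes above 0.95.

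Protein-coding genes within 1000000 bases of each member were set beside it for the difference between the unperturbed lines, a window chosen after values were seen. Of all 19605 genes tested, 9950 were higher in NCI-H660 cells, called or not, and the median of the 14696 protein-coding genes was 0.12. Of 12 tested neighbors of CCNE2, 11 were higher in NCI-H660 cells (median 1.34). These include INTS8 (1.36), which shares exon bases with CCNE2. Such one-sided sets were not particular to CCNE2. Of 24 neighbors of CDKN1A, 19 were higher (median 0.72), and of 5 neighbors of CCNE1, 0 were higher (median -1.09, against -0.61 for CCNE1). The 9 neighbors of RB1 had a median of -0.77, and LPAR6, which lies within RB1, had 239 counts in C4-2B control against 1 count in shCtrl libraries. CDKN2B, which encodes the CDK4 inhibitor p15 and adjoins CDKN2A, was higher by 4.87, while the median of the 4 tested neighbors of CDKN2A was -0.15. The 12 neighbors of CCND1 had a median of -0.51, against -4.32 for CCND1. DNA copy number was not analysed here.

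**Figure D5:**
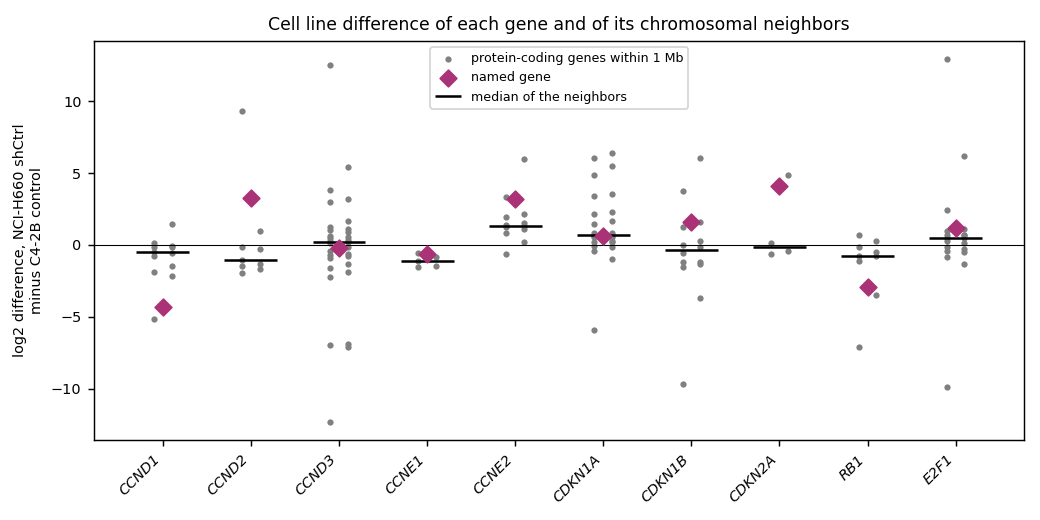
Log2 difference between NCI-H660 shCtrl and C4-2B control (vertical axis) for each of the 10 genes (diamonds) and the tested protein-coding genes around it (points), with bars at the medians of the neighbors. CCNE2 lies above a raised set of neighbors, whereas CCND1 and CDKN2A lie away from medians of -0.51 and -0.15.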

How the data were processed

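The authors deposited gene-level counts and TPM values for 8 poly(A) paired-end libraries, and per the labels the build was hg38. The estimated counts deposited by the authors were not normalized between libraries, and since 34.4% of the non-zero values were not whole, they were rounded for testing. The TPM values deposited by the authors correct counts for gene length and give libraries an equal sum. Their table holds 65535 of the 78691 genes, all 10 members included. The aligner, the counting tool and its use of strand are not given in the sources used here. Totals between 15177071 and 32344170 counts set the precision, and counting intervals cover counting error only.

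The C4-2B and NCI-H660 libraries were fitted separately in edgeR 4.0.16 (R 4.3.3), by the quasi-likelihood test after TMM normalization and filterByExpr, and p-values of all genes tested were adjusted together by Benjamini-Hochberg. Calls needed an adjusted p under 0.05 as well as a log2 fold change of 0.5 or more in size. The interaction and the comparison of unperturbed lines were fitted on all 8 libraries. Standard errors were derived from the fold change and the test statistic. The test was run on simulated data with known changes beforehand. Members and lists were chosen with earlier results of these data known. The text names all members, any gene of the short pathway lists and, from the E2F target, p53 target and proliferation lists, the 3 called genes with the largest change in each line. MDM2 was named besides these, after its value was seen. Overlapping genes were taken from GENCODE 44, which held 61458 of the identifiers, and promoters from RefSeq (GRCh38.p14). No promoter entry was matched for CCND1, CCND2 and CCNE2.

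Alternative settings were DESeq2 1.42.0, size factors by relative log expression, no count filter, 10 or more counts in every library, a replicate block, all 4 groups in 1 fit, limma 3.58.1 on log2(TPM + 1) or log2(TPM + 0.1) with a TPM of 1 required in 2 libraries, the former also centred or unfiltered, other fold thresholds, and leaving out each library. Python 3.11.15, pandas 2.3.3 and matplotlib 3.10.9 were used for tables and plots.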

Additional observations from a re-analysis of the deposited data

Results flagged for a closer look

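For 5 members the effect of high against low MYCL differed between C4-2B and NCI-H660 cells by the interaction test of edgeR. The difference in log2 effect, C4-2B minus NCI-H660, was -1.57 for CCND1, 0.88 for CCND3, -1.31 for CCNE2, 1.51 for CDKN1A and -0.56 for E2F1. The values of CCND1, CCND3, CCNE2 and CDKN1A were called in all 15 alternatives, with ranges from -1.68 to -1.41, from 0.69 to 1.08, from -1.53 to -1.07 and from 1.36 to 1.64. That of E2F1 was called in 7 of 15. The cause of these differences was not tested.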

How the results depend on the processing

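The limits are few libraries, 2 per condition, counts of unknown strand use and CCND2 levels of at most 11 counts. For single members, 516 alternative values kept their direction and their side of the thresholds, 48 lost and 21 gained a call, and 5 changed sign. Those were CCND2 (-0.71, and up to 6.22 without other libraries) and CCNE1 (-0.040, and up to 0.32) in the interaction without shMYCL replicate 2, CCND3 (0.34) and CCNE1 (0.047) between the unperturbed lines on log2(TPM + 1), and CDKN2A (-0.0082, and up to 0.17) in NCI-H660 without shCtrl replicate 1. The cause was not tested.

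In C4-2B cells the 3355 called genes became 1831 on unfiltered log2(TPM + 1), 5895 with no minimum on the fold change and 1411 with a minimum of 1 on the log2 scale, where 3 of the 6 members stayed. In NCI-H660 cells the 2745 called genes became 1735 by DESeq2, 913 on log2(TPM + 1), 888 after centring, 231 on log2(TPM + 0.1), 2 without a filter, 4204 with no minimum and 1022 with a minimum of 1. The 5 called members became 2, 2, 0, 0 and 1 on log2(TPM + 1), centred, log2(TPM + 0.1), unfiltered and with a minimum of 1, and 3 without shMYCL replicate 2. In both fits that called none of them, limma gave 6 members an unadjusted p under 0.05. Between the unperturbed lines the 13687 called genes became 8512 with at least 10 counts in every library, a stricter filter that leaves fewer genes.

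Leaving out single libraries gave between 2835 and 3556 called genes and 6 to 7 members in C4-2B, between 2292 and 3035 genes and 3 to 5 members in NCI-H660, between 2532 and 3513 genes and 4 to 5 members for the interaction, and between 13216 and 14157 genes and 7 to 9 members between the unperturbed lines. With 1 library left in a group, its spread was taken from the other groups. Higher genes were 53.5% of the interaction calls but 37.8% on log2(TPM + 1), and 52.2% of those between the unperturbed lines but 71.1% on log2(TPM + 1) and 40.9% after centring.

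Libraries shared only a replicate number, and equal numbers did not deviate together (correlation 0.03 in C4-2B and 0.05 in NCI-H660). A fit with a replicate block called 3536 genes and 6 members in C4-2B, 2949 genes and 5 members in NCI-H660, 3576 genes and 5 members for the interaction, and 13128 genes and 8 members between the unperturbed lines.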
